A study of Mus musculus with 4 samples.

Results

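The L1 family of cell adhesion molecules (L1cam, Nrcam, Chl1 and Nfasc) and the contactins (Cntn1 to Cntn6) were examined in mouse retina at the embryonic stage E13.5. These 10 genes were chosen by name, with earlier results of these data known. All 10 were found among the 25239 gene IDs of the tables, each on 1 row per library. RNA sequencing had been done on 2 libraries labelled control and 2 labelled Isl1cKO, in which the series describes the LIM-homeodomain gene Isl1 as lost. What genotype the controls carry, which Cre line and alleles made the knockout, and whether a library pools several embryos are not given in the sources used here. Nothing in the labels says that the libraries came from separate litters, so every p-value measures the spread between these libraries, which may be technical.

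Both families are built from immunoglobulin and fibronectin type III domains on the outside of the neuron. L1 family proteins cross the membrane and bind ankyrin through a short cytoplasmic tail, whereas contactins are held by a lipid anchor and act with partners in the same membrane. L1, NrCAM, neurofascin and contactin-2 (also called TAG-1) lie on growing axons, and in the embryonic retina the axons are those of the ganglion cells, which bundle on their way to the optic nerve.

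Expression is given in TPM (length-scaled transcript abundance, with the same total in every library), so that levels of different genes can be compared. Tests were made with limma across the 13984 genes with at least 1 TPM in 2 libraries, on log2(TPM + 1), and every fold change given as log2 is on that scale, where differences of low genes come out too small. A call is a Benjamini-Hochberg adjusted p-value under 0.05 over all tested genes. The targeted gene was not lower in the libraries labelled as its knockout: Isl1 stood at 242 and 201 TPM in the control pair, against 321 and 223 TPM in the Isl1cKO-labelled pair, for which limma gave a log2 fold change of 0.28 (SE 0.21; adjusted p-value 0.683). That value was 0.014 without Isl1cKO replicate 1 and 0.54 without replicate 2. The tables hold no value per exon, so every direction below rests on the labels. The eye-field markers Pax6, at 537 to 610 TPM, and Rax, at 405 to 477 TPM, were abundant in all 4 libraries. The total depth in reads is unknown, and the coverage and FPKM columns correspond to 12.6 to 14.3 gigabases of aligned sequence per library.

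No member passed the test, and the widest differences among the 8 tested members were those of Cntn2 and L1cam. In the libraries labelled Isl1cKO, Cntn2 was 3.11-fold lower and L1cam 2.24-fold lower, Nrcam and Cntn1 were 1.67-fold and 1.64-fold lower, and Nfasc was 1.32-fold lower, as ratios of mean TPM. Cntn3 and Cntn4 had overlapping groups, and Cntn6 was at 1.24 times the control mean. The scarce Chl1 and Cntn5, which were not tested, were 4.76-fold and 2.63-fold lower by the same ratio. Of the 10 genes, 8 passed the filter on low values and 0 of the 8 were called, against 0.493% of all tested genes. At an unadjusted p-value under 0.05 in limma, 4 of the 8 were lower (Cntn2, L1cam, Cntn1 and Nrcam) and 0 higher, where 8.92% of all tested genes were lower by that rule. In 5 of the 8 both libraries labelled Isl1cKO lay below both controls, which 30.0% of tested genes did, and in 1 of the 8 both lay above, which 14.9% did. The members were chosen with earlier results of these data known, so these counts are no independent evidence about the families. With 2 libraries a group, an exact permutation test of a single gene cannot go below 0.333. In bulk tissue, fewer cells of a type and less RNA per cell cannot be told apart.

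**Figure D1:**
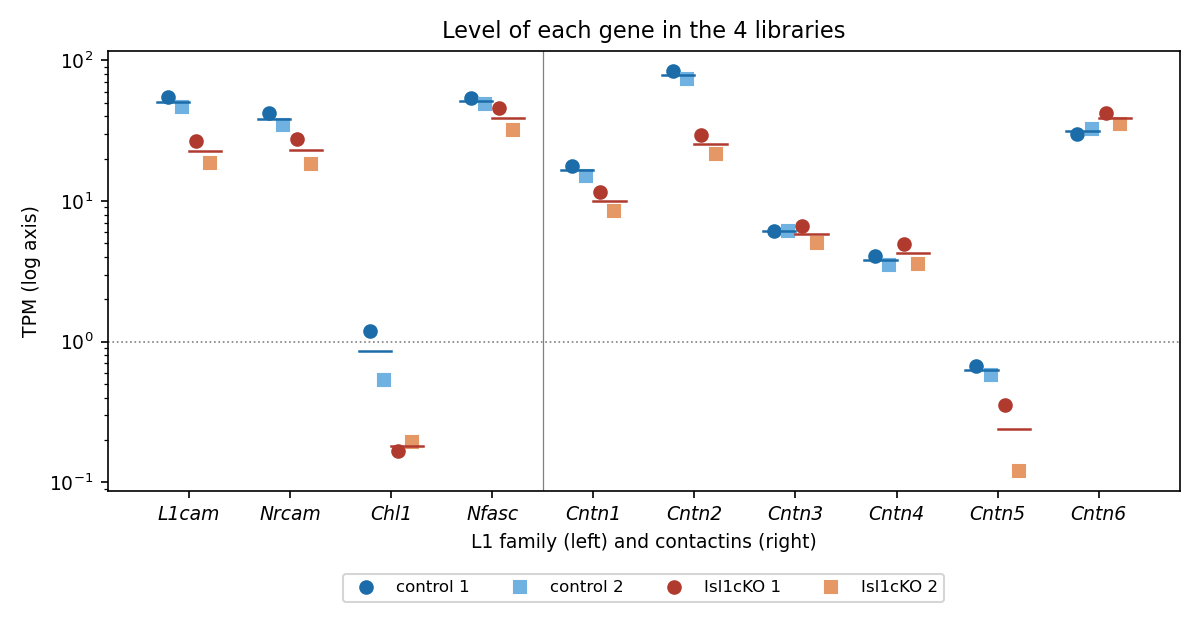
Level of each of the 10 genes in TPM on a log axis. Each point is 1 library (blue for control, red and orange for Isl1cKO; circles for replicate 1, squares for replicate 2), short lines are group means and the dotted line marks 1 TPM. Cntn2 is the highest gene in the controls, at 84.5 and 74.1 TPM, and lies at 29.3 and 21.7 TPM in the Isl1cKO-labelled pair, while Cntn6 lies above its controls in both libraries labelled Isl1cKO.

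The windows around the starts of 3 of these genes are shown because the genes differ most in their values: Cntn2 and L1cam, with the lowest log2 fold changes of the tested members, and Cntn6, the only member with both libraries labelled Isl1cKO above both controls. They are RefSeq windows of GRCm38.p6, from 250 bases before to 50 bases after a start, read 5′ to 3′ on the gene's strand. They lie at chr1:132542891-132543190 (minus strand) for Cntn2, chrX:73880741-73881040 (minus strand) for L1cam and chr6:104492794-104493093 (plus strand) for Cntn6. Capitals mark TAAT on either strand, the core that homeodomain proteins such as ISL1 recognise.
Cntn2: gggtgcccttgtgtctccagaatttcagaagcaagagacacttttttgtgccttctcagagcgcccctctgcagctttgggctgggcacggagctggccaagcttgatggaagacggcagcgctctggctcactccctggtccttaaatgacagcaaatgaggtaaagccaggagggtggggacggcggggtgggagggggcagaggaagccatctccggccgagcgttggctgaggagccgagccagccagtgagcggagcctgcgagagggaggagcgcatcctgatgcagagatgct
L1cam: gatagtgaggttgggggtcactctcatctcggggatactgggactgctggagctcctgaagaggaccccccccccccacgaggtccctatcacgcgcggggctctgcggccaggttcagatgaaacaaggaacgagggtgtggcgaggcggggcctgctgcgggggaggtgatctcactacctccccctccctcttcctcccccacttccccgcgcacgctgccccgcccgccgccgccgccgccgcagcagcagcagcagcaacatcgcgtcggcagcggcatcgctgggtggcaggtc
Cntn6: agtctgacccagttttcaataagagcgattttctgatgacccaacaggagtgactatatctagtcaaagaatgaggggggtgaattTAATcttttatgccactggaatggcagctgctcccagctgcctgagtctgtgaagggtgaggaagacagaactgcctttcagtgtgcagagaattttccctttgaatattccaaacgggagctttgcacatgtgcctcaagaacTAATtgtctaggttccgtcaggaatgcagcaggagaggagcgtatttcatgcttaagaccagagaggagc

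All 10 genes had at least 1 such window, 16 in all. TAAT (both strands) was found in 10 of the 16, belonging to 6 of the 10 genes, against 58.0% of 32851 mouse windows of the same length and 42.0% of the 13828 windows of tested genes. The Cntn2, L1cam, Nrcam and Chl1 windows held 0 copies and the Cntn6 window held 2. The longer word CTAATG (both strands, which contains TAAT) was in 0 of the 16, against 7.4% of all windows and 4.7% of those of tested genes. The GC box GGGCGG (both strands) was in 6 windows of 4 genes, L1cam, Nrcam, Nfasc and Cntn5, against 35.7% of all windows and 62.4% of those of tested genes. The word CAGCTG was in 4 of the 16, with 2 copies in the Cntn6 window, against 16.3% of all windows and 15.4% of those of tested genes. Windows of the same gene can overlap, as those of Cntn4 do, so they are not separate observations. GC content was 61.3% for the Cntn2 window, 69.3% for the L1cam window shown, 74% for Nrcam and 46.3% for Cntn6, and its median over windows of tested genes was 61%. A match is a description of the letters only.

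L1cam (chromosome X, 73853778 to 73880834, minus strand), the founding member of its family, had 54.8 TPM in control replicate 1 and 46.6 TPM in replicate 2. Its level was 26.6 TPM in Isl1cKO replicate 1 and 18.6 TPM in replicate 2. The groups did not overlap, and the gap between them was wider than that within either. Its log2 fold change was -1.15 (SE 0.20, 95% interval -1.68 to -0.62), with an unadjusted p-value of 0.00313 and an adjusted p-value of 0.158 in limma. Only 1.04% of tested genes had a lower log2 fold change. L1cam is X-linked, and Xist, the transcript of the inactive X, was at 235, 209, 287 and 0.501 TPM in control replicates 1 and 2 and Isl1cKO replicates 1 and 2. Without Isl1cKO replicate 2, the library with almost no Xist, the log2 fold change of L1cam was -0.90.

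Nrcam (chromosome 12, 44328885 to 44601846, plus strand), which with neurofascin gathers sodium channels at axon segments later in life, stood at 42.1 and 34.8 TPM in the controls. In the libraries labelled Isl1cKO it stood at 27.5 and 18.4 TPM, again with no overlap. The log2 fold change was -0.74 (SE 0.22, 95% interval -1.33 to -0.15) and the adjusted p-value in limma was 0.328. It was -0.46 without Isl1cKO replicate 2.

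Nfasc (chromosome 1, 132564690 to 132741797, minus strand) was the least lowered of the tested L1 family genes. It stood at 53.9 and 49.0 TPM in the control pair, against 46.1 and 32 TPM in the Isl1cKO-labelled pair. Isl1cKO replicate 1 was close to the controls and replicate 2 was far below them. The log2 fold change was -0.41 (SE 0.19, 95% interval -0.93 to 0.11), with 0.497 as the adjusted p-value in limma, and it was -0.15 without Isl1cKO replicate 2.

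Chl1, the close homolog of L1 (chromosome 6, 103510876 to 103733035, plus strand), was scarce. It stood at 1.19 and 0.532 TPM in the control pair, against 0.168 and 0.194 TPM in the Isl1cKO-labelled pair, and was not tested because 1 library alone reached 1 TPM. Both libraries labelled Isl1cKO were below both controls, and the controls themselves differed 2.24-fold.

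Cntn2 (chromosome 1, 132509425 to 132542940, minus strand) was the highest of the 10 genes in both controls. It stood at 84.5 and 74.1 TPM there and at 29.3 and 21.7 TPM in the Isl1cKO-labelled pair. The groups lay far apart: the replicates differed 1.14-fold within control and 1.35-fold within Isl1cKO. Its log2 fold change was -1.61 (SE 0.17, 95% interval -2.07 to -1.15), its unadjusted p-value 0.000418 and its adjusted p-value 0.0649 in limma, just short of the threshold. Cntn2 was called in 5 of 10 refitted alternatives, where its log2 fold change ranged from -1.65 to -1.51 and its adjusted p-value from 0.00839 to 0.176. Its neighbour Nfasc lies 21.7 kilobases from it on the same strand, and the ratio of Cntn2 to Nfasc was 1.57 and 1.51 in the controls against 0.637 and 0.678 in the libraries labelled Isl1cKO. The exact two-sided permutation test on that ratio gave the smallest p-value it can give, 0.333.

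Cntn1 (chromosome 15, 92051165 to 92341967, plus strand), a contactin that at myelinated axons forms a complex with neurofascin and a contactin-associated protein, stood at 17.9 and 15.0 TPM in the controls. It stood at 11.6 and 8.44 TPM in the Isl1cKO-labelled pair, without overlap. The log2 fold change was -0.67 (SE 0.18, 95% interval -1.15 to -0.20), with 0.290 as the adjusted p-value in limma.

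Cntn6, also known as NB-3 (chromosome 6, 104493044 to 104863405, plus strand), stood at 29.8 and 32.8 TPM in the control pair, against 42.0 and 35.4 TPM in the Isl1cKO-labelled pair. The groups did not overlap, but the lower of the Isl1cKO values was near the higher control. The log2 fold change was 0.29 (SE 0.12, 95% interval -0.025 to 0.61), with 0.445 as the adjusted p-value in limma. It was 0.17 without Isl1cKO replicate 1. The ratio of Cntn2 to Cntn6 was 2.83 and 2.26 in the controls and 0.699 and 0.613 in the libraries labelled Isl1cKO, so the order of these contactins was inverted in each library, again at the smallest exact permutation p-value of 0.333. Both ratios were picked after their values were seen.

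Cntn3 (chromosome 6, 102163306 to 102464667, minus strand) was measured at 6.08 and 6.15 TPM in the control pair, against 6.62 and 5.01 TPM in the Isl1cKO-labelled pair. Cntn4 (chromosome 6, 105677667 to 106700135, plus strand) stood at 4.09 and 3.52 TPM, and at 4.95 and 3.57 TPM, in the same order. For both genes the groups overlapped. The 95% intervals of their log2 fold changes were -0.44 to 0.29 for Cntn3 and -0.30 to 0.54 for Cntn4. Cntn5 (chromosome 9, 9660891 to 10904775, minus strand) was below 1 TPM everywhere and was not tested, with 0.676 and 0.577 TPM in the control pair, against 0.355 and 0.121 TPM in the Isl1cKO-labelled pair.

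**Figure D2:**
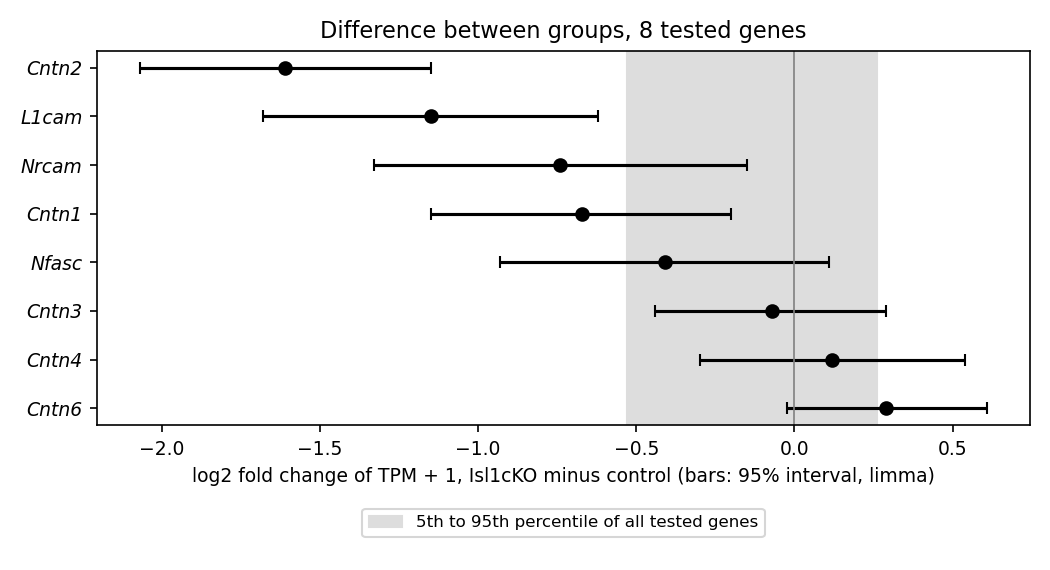
Difference between the groups for the 8 tested genes, as log2 fold change of TPM + 1, Isl1cKO minus control, with 95% intervals from limma. The grey band spans the 5th to the 95th percentile of all tested genes, -0.53 to 0.26. Cntn2 and L1cam lie wholly to the left of the band, and Nfasc, Cntn3 and Cntn4 have intervals that include 0, as does Cntn6, whose estimate of 0.29 is just right of the band.

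Cntn3, Chl1, Cntn6 and Cntn4 lie within 4.54 megabases of chromosome 6, in an interval that holds 5 other gene IDs, 0 of them at 1 TPM in 2 libraries. Within it Chl1 was at 0.210 of its control mean, Cntn3 at 0.952, Cntn4 at 1.12 and Cntn6 at 1.24. The tables list 3 genes overlapping a member, all on the opposite strand: 4930587E11Rik in Cntn3 and Mir6237 in Cntn5, both listed at 0 in every library, and Gm10538 in Nfasc, at no more than 0.103 TPM. In GENCODE M21, of the same assembly, all 10 are protein-coding, with 22 to 30 coding exons and 1020 to 1347 codons in the longest coding sequence.

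The order of the levels differed between the groups. In the controls it ran Cntn2, Nfasc, L1cam, Nrcam, Cntn6, Cntn1, Cntn3, Cntn4, Chl1 and Cntn5 by mean TPM, and the neighbours Nfasc and L1cam, and Chl1 and Cntn5, did not differ beyond their spread. In the libraries labelled Isl1cKO it ran Nfasc, Cntn6, Cntn2, Nrcam, L1cam, Cntn1, Cntn3, Cntn4, Cntn5 and Chl1. There Nfasc and Cntn6, Cntn2 and Nrcam, Nrcam and L1cam, and Cntn5 and Chl1 had overlapping ranges. Places 6 to 8, held by Cntn1, Cntn3 and Cntn4, were the same in all 4 libraries.

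The summed level of the 10 genes was 295 and 263 TPM in the control pair, against 195 and 143 TPM in the Isl1cKO-labelled pair. The L1 family contributed 152, 131, 100 and 69.1 TPM and the contactins 143, 132, 94.9 and 74.2 TPM, in the same order. Isl1cKO replicate 2 was the lowest library for both sums, and it lay below Isl1cKO replicate 1 for every member except Chl1. As a share of the sum, Cntn2 made up 28.6% and 28.2% in the controls and 15.0% and 15.1% in the libraries labelled Isl1cKO. Cntn6 made up 10.1% and 12.5%, and then 21.5% and 24.7%. The share of L1cam went from 18.6% and 17.7% to 13.6% and 13%, and that of Nfasc from 18.3% and 18.6% to 23.6% and 22.3%. Nrcam held 12.8% to 14.3% and Cntn1 5.70% to 6.07% in all 4 libraries, so their share hardly moved while their level was lower.

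**Figure D3:**
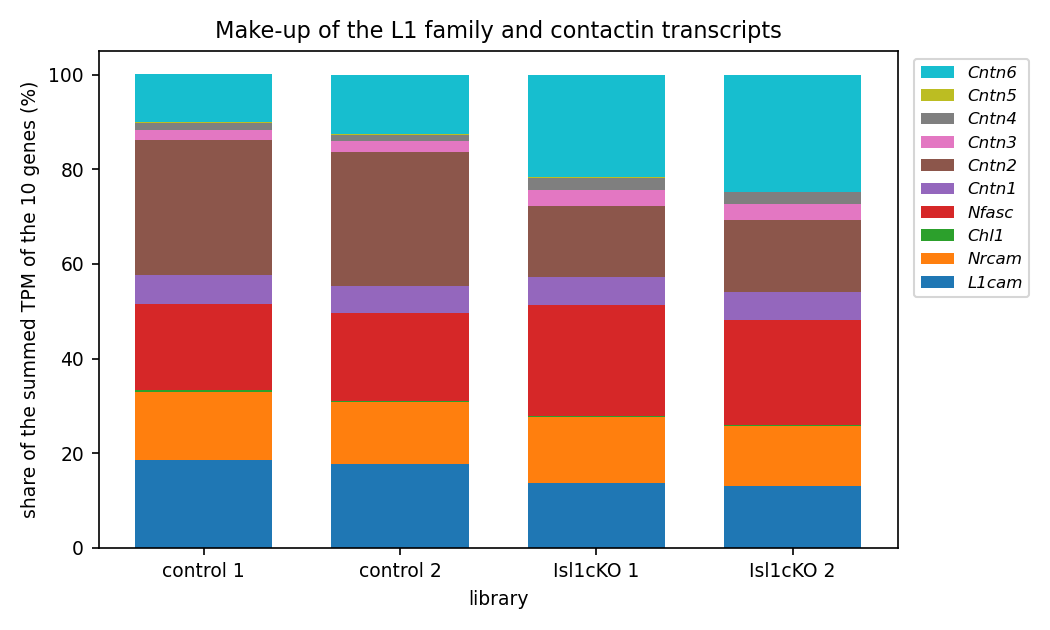
Share of the summed TPM of the 10 genes held by each gene, in percent, with 1 stacked bar per library. The Cntn2 band narrows from 28.6% and 28.2% in the controls to 15.0% and 15.1% in the libraries labelled Isl1cKO, and the Cntn6 band widens from 10.1% and 12.5% to 21.5% and 24.7%. The sum itself is lower in the libraries labelled Isl1cKO, so a wider band need not be a higher level.

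Markers of the ganglion cells moved with the lower members. Of 18 listed ganglion cell markers, such as Gap43, Nefm and Stmn2, 17 were tested and 15 (88.2%) were lower, against 63.8% of all tested genes, with a median log2 fold change of -1.12. A high share lower was not particular to ganglion cells. Photoreceptor precursor markers had 6 of 6 tested genes lower (median -0.45), lens markers 9 of 10 and red blood cell markers 7 of 7. Progenitor markers had 5 of 12 lower and microglia markers 1 of 9. Of the 18 ganglion cell markers 2 were called (Irx2 and Nell2), and both lose the call when any 1 library is left out. The number called was 0 at a pseudocount of 0.1 and with no filter, 5 with FPKM, 8 with a mean-variance trend and 10 with the replicate number as a block. Their summed level was 4135 and 3529 TPM in the control pair, against 2274 and 1570 TPM in the Isl1cKO-labelled pair. Thy1 was the only marker of that list below the filter, and Isl1 and Pou4f2 were the 2 that were not lower. The list was written with earlier results of these data known, so its direction is no independent evidence, and its part in the values of the 10 genes was not tested.

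Values were also set against that sum, as a description with no test. Because the sum itself was lower, the median ratio of Isl1cKO to control over all tested genes was 1.97 on this measure. Dividing by that sum raises the ratio of any gene. A value above control, or a ratio above that of TPM, therefore says nothing particular of a member. L1cam held 13.3 and 13.2 TPM per 1000 TPM of the ganglion cell markers in the controls and 11.7 and 11.8 in the libraries labelled Isl1cKO, a ratio of means of 0.889 against 0.446 for its TPM. Nrcam went from 10.2 and 9.85 to 12.1 and 11.7, and Cntn1 from 4.33 and 4.25 to 5.10 and 5.37. Cntn2 remained lower, at 20.4 and 21 against 12.9 and 13.8. Nfasc went from 13 and 13.9 to 20.3 and 20.4, and Cntn6 from 7.21 and 9.29 to 18.5 and 22.5. The scarcer Cntn3 and Cntn4 also had higher values, 1.47 and 1.74 against 2.91 and 3.19 for Cntn3, and 0.988 and 0.997 against 2.18 and 2.27 for Cntn4. On this measure 2 of the 8 tested members (Cntn2 and L1cam) had both Isl1cKO values below both controls, as did 1.37% of all tested genes, and 6 had both above, as did 93.8%. The untested Chl1 and Cntn5 were below. The marker sum includes Isl1, at 242 and 201 TPM in the control pair against 321 and 223 TPM in the Isl1cKO-labelled pair. It also includes Pou4f2, at 126 and 124 TPM against 135 and 120 TPM, in the same order. Neither was lower, so the small gap of L1cam need not hold for a sum without them, which was not tested.

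**Figure D4:**
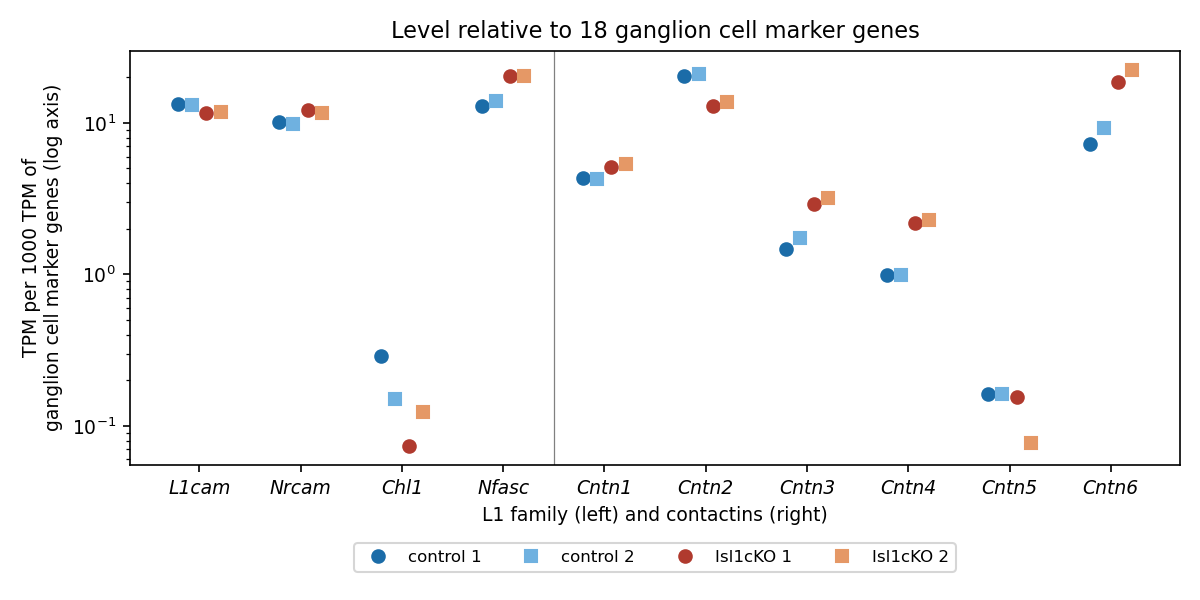
TPM of each gene per 1000 TPM of the 18 ganglion cell markers, on a log axis, with 1 point per library in the colours of the plot of levels. L1cam, at 13.3 and 13.2 against 11.7 and 11.8, Cntn2, Chl1 and Cntn5 are lower in both libraries labelled Isl1cKO, and Nrcam, Nfasc, Cntn1, Cntn3, Cntn4 and Cntn6 are higher in both, as are 93.8% of all tested genes. The marker sum includes Isl1 and Pou4f2, which were not lower, and the small gap of L1cam need not hold without them.

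Other cell types were read from marker lists, whose part in the results was not tested. By summed TPM in control replicates 1 and 2 and Isl1cKO replicates 1 and 2, retinal progenitors gave 8215, 7817, 7001 and 7846, amacrine and horizontal cells 135, 115, 144 and 100, and photoreceptor precursors 372, 340, 341 and 276. Lens markers gave 185, 228, 13.1 and 9.47, with Lim2 listed at 0 in both libraries labelled Isl1cKO, and red blood cell markers gave 2784, 4016, 1335 and 183. Pigment epithelium gave 44.6, 37.6, 36.4 and 27.0 with Rpe65 listed at 0 throughout, periocular mesenchyme 26.8, 19.4, 18.8 and 14.4, endothelium 85.4, 64.2, 62.8 and 59.3 (Cdh5, Tie1 and Emcn listed at 0 in Isl1cKO replicate 2), and microglia 58.0, 59.8, 71.5 and 90.3. Astrocyte, oligodendrocyte and Schwann markers, which cover other cells that use these adhesion molecules, gave 17.6, 19.8, 17 and 19.4, with Sox10 listed at 0 in control replicate 1. Of those lists 5 lens genes were called, all lower, and 0 genes of any other. Each sum follows the highest genes of its list. Among progenitor markers 7 of 12 were higher (median log2 fold change 0.12), and among tested amacrine and horizontal markers 5 of 7 were lower (median -0.47). In the endothelium sum Kdr alone held 69.0 and 57.0 TPM in the controls, against 56.7 and 55.5 TPM in the Isl1cKO-labelled pair.

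The partners of these proteins were followed through lists, beside which 63.8% of all tested genes were lower, with a median log2 fold change of -0.048. On the extracellular side, where co-receptors and matrix ligands bind, 12 of 13 tested genes were lower and 0 called, with 6 lower at an unadjusted p-value under 0.05 and a median log2 fold change of -0.27. With the replicate number as a block 1 was called (Nrp1, adjusted p-value 0.00673 in limma). Nrp1, the semaphorin receptor that pairs with L1, had the largest difference, at 27.5 and 19.0 TPM in the control pair, against 8.24 and 5.06 TPM in the Isl1cKO-labelled pair. Its log2 fold change of -1.67 (SE 0.28) had an adjusted p-value of 0.149 in limma. Aplp1, of the amyloid precursor family, had a log2 fold change of -0.51, and Ncan, a brain proteoglycan that binds L1, one of -0.48. Without Isl1cKO replicate 2 the value of Ncan was -0.31.

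On the inner side, 8 of 12 tested linkers to the cytoskeleton were lower, 0 were called and 2 were lower at an unadjusted p-value under 0.05, with a median of -0.072, so that the share lower, 66.7%, was near that of all tested genes. The median was -0.022 without Isl1cKO replicate 2 and -0.020 with median-ratio scaling. The ankyrins that L1 family tails bind had overlapping groups: Ank2 averaged 145 ± 22.6 TPM in the controls against 137 ± 6.87 TPM, and Ank3 averaged 73.6 ± 3.99 TPM against 76.7 ± 0.393 TPM (SD, n = 2 each), both chosen for naming after their values were seen. The largest differences were those of Dcx, a microtubule protein of young neurons, at -0.52 (-0.053 without Isl1cKO replicate 2), Epb41l3, which links contactin-associated proteins to actin, at -0.38, and the spectrin Sptan1 at -0.37 (-0.16 without Isl1cKO replicate 2).

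Among contactin-associated proteins, 3 of 7 were tested and 0 called. Cntnap2, the partner of Cntn2, stood at 59.9 and 56.8 TPM in the control pair, against 51.4 and 50 TPM in the Isl1cKO-labelled pair, and the 95% interval of its log2 fold change was -0.41 to 0.017. Of the sheddases that cut these ectodomains, 3 were tested and 0 called. Adam10 had a log2 fold change of -0.49 (adjusted p-value 0.285 in limma), against -0.076 for Bace1 and -0.012 for Adam17.

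Among 23 tested adhesion molecules of other immunoglobulin families 1 was called. Sdk1, a sidekick protein that guides layer-specific contacts in the retina, fell from 11.7 and 10.7 TPM to 4.66 and 4.47 TPM. Its log2 fold change was -1.13 (SE 0.088), with 0.0307 as the adjusted p-value in limma, and the call was kept in 8 of 10 refitted alternatives but lost when any 1 library was left out. Of the 23, 17 (73.9%) were lower, and the median log2 fold change of -0.13 became -0.047 when control replicate 1 was left out and -0.071 when Isl1cKO replicate 2 was.

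The genes most like L1cam and Cntn2 were found by Euclidean distance over the 4 libraries between log2(TPM + 1) values, each gene centred on its control mean. Nearest to L1cam were Igfbpl1 at a distance of 0.0931, the microRNA row Mir6976 at 0.116 and Smim18 at 0.119. Igfbpl1 stood at 130 and 111 TPM in the control pair, against 61.2 and 47.3 TPM in the Isl1cKO-labelled pair. The low row Mir6976 stood at 3.18 and 2.75 TPM against 1.26 and 0.557 TPM, in the same order. By ratio of mean TPM it was 3.27-fold lower, against 2.24-fold for L1cam, so nearness on this scale is not likeness in fold. Nearest to Cntn2 were Synpo at 0.136, Crnde at 0.142 and the Iroquois homeobox gene Irx6 at 0.154, the last at 9.09 and 7.04 TPM in the control pair, against 2.70 and 1.53 TPM in the Isl1cKO-labelled pair. These are descriptions with no test.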

How the data were processed

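RNA from retina at E13.5 was sequenced from strand-specific, poly(A)-selected libraries, per the labels' protocols. The submitters' processing notes name Trimmomatic, FastQC, HISAT2, SAMtools, StringTie and DESeq2 and the build mm10, without versions, and the annotation is not given in the sources used here. Each library has its own table. Per the file headers, the authors give mean coverage per base (a signal not scaled to depth), FPKM and TPM, and the deposited TPM sum to 1000000 per library. No column holds read counts, so no count test was run, and the tables do not say whether strand was used in assigning reads.

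TPM was summed over repeated rows of a gene ID (171 to 234 IDs per library). Genes with at least 1 TPM in at least 2 libraries were fitted as log2(TPM + 1) with limma 3.58.1 (R 4.3.3), genotype as the only term, a constant prior variance and Benjamini-Hochberg adjustment, threshold 0.05. Coverage served only to describe depth, and FPKM only as an alternative. The fit was tested on simulated data. Exact permutation tests used scipy 1.17.1. Members and lists were chosen with earlier results of these data known. Genes named by rule are the members, Isl1, list genes that were called or else the 3 with the largest absolute log2 fold change among those with a group mean of at least 5 TPM, and the 3 genes nearest to L1cam and to Cntn2. Other genes named, such as cell type markers, Xist, genes overlapping a member, Ank2, Ank3 and uncalled adhesion genes such as Dscam, fall outside that rule.

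Alternatives were another pseudocount (0.1), no filter or one of 5 TPM, median-ratio and upper-quartile scaling, FPKM, a mean-variance trend, the replicate number as a block, the highest row of a repeated gene ID, removing crystallin, haemoglobin and sex-linked genes, and leaving out each library. Promoter windows and gene models came from RefSeq (GRCm38.p6) and GENCODE M21. The last 20 bases of each window shown were found in a GENCODE transcript of its gene, and those of the Cntn1 window at chr15:92127878-92128177, which was counted but not shown, were not.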

Additional observations from a re-analysis of the deposited data

How the results depend on the processing

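Over 110 refits of the 8 tested genes, direction was kept in 108, and 6 refits brought a gene past the threshold, 5 of Cntn2 and 1 of L1cam. The count of members past it, 0 in the reported fit, was 1 (Cntn2) at a filter of 5 TPM, under median-ratio scaling, with FPKM and with a mean-variance trend. It was 2 (Cntn2 and L1cam, adjusted p-values 0.00839 and 0.0216 in limma) with the replicate block, and stayed 0 under the other 5 alternatives, and 0 with each library left out. The labels give no litter or day that the replicate numbers share, so the reported fit has no block. The deviations of the libraries numbered 1 correlated at 0.126 over genes. With 2 libraries a group that value cannot decide whether libraries of the same number share a batch.

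Over all genes the count of 69 was 44 at a pseudocount of 0.1, 15 with no filter (more genes tested), 109 with FPKM, 110 with a mean-variance trend, 265 with the replicate block and 43 with crystallin, haemoglobin and sex-linked genes removed, L1cam among them. It ranged from 10 without control replicate 1 to 37 without Isl1cKO replicate 1, in limma fits on 3 libraries that were chosen after seeing the data and assume that the lone library varies like the other group. Changes of sign concerned genes near 0: Cntn3 ranged from -0.24 to 0.10 and Cntn4 from -0.070 to 0.31 with a library left out. Adam17 was 0.039 with median-ratio and 0.035 with upper-quartile scaling, 0.036 with FPKM, and ranged from -0.031 to 0.0073 with a library left out. Sdk1 lost its call at a pseudocount of 0.1 and with no filter (adjusted p-values 0.0505 and 0.0867 in limma), and with each library left out. Except where stated, the cause was not tested. Without read depth, no detection limit could be set for Chl1, Cntn5 or rows listed at 0.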

Other observations

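Among other immunoglobulin adhesion molecules, 5 genes that were not called were picked after their values were seen. Dscam, which spaces retinal neurons and their processes, was 4.0-fold lower in the libraries labelled Isl1cKO, at 8.95 and 6.43 TPM in the controls against 2.17 and 1.68 TPM, adjusted p-value 0.0747 in limma. Kirrel3 was 2.70-fold lower (adjusted p-value 0.0842 in limma), Alcam 2.17-fold lower (0.244) and the IgLON gene Ntm 1.61-fold lower (0.158). Opcml, another IgLON gene, went the other way, at 1.56 and 1.25 TPM in the controls against 4.81 and 3.58 TPM, with a log2 fold change of 1.10 (SE 0.15) and an adjusted p-value of 0.106 in limma.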
